A study of Mus musculus with 14 samples.

Results

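The COUP-TF nuclear receptors of the fetal mouse ovary are described here: Nr2f2 (COUP-TFII, the gene deleted in the study), Nr2f1 (COUP-TFI) and Nr2f6 (EAR2). The members were all probe sets whose single gene symbol in the platform annotation was one of these 3 symbols, whatever their signal. The 3 genes, of 18193 with a probe set of their own, had 9 such probe sets among 45037 probe sets other than controls: 6 for Nr2f2, 1 for Nr2f1 and 2 for Nr2f6. Embryos were of a mixed background (C57BL/6, Swiss Webster and B6129SF1/J). The knockout model combined WT1-CreERT2, a tamoxifen-dependent Cre under Wt1 control, with COUP-TFII flox/flox alleles, and dams received tamoxifen at 2 mg per 10 g of body weight on E11.5 and again on E12.5. Whole ovaries were profiled on Affymetrix arrays from Coup-tfII knockout embryos at E14.5 (3 arrays), control embryos at E14.5 (3 arrays), knockout embryos at E16.5 (4 arrays) and control embryos at E16.5 (4 arrays), which the labels call biological replicates. The labels give the control genotype only as control, so which Cre and floxed alleles the controls carried is unknown here, and the tamoxifen protocol is listed for all 14 samples.

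COUP-TFs are orphan nuclear receptors that bind direct repeats of the hormone response element as homodimers or with a retinoid X receptor, and they mostly repress and sometimes activate their targets. Nr2f1 and Nr2f2 are near-identical in their DNA-binding and ligand-binding regions and are best known from neural development and from mesenchyme and veins, while Nr2f6 is a more distant relative. In the fetal gonad, COUP-TFII protein marks interstitial (stromal) cells rather than the supporting or germ cells, and Wt1 is active in somatic cells of the gonad, so this Cre acts in part of the tissue only. The comparison asks how much Nr2f2 signal was left in the knockout ovaries and whether Nr2f1 or Nr2f6 was higher there.

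Signals are MAS5 intensities, scaled by the authors so that the trimmed mean of each array was 500. Log2 changes were fitted on log2(signal + 16), which understates the change of dim probe sets, and a probe set was called when limma's Benjamini-Hochberg adjusted p over all 45037 probe sets was under 0.05. Arrays of the same group correlated at 0.969 to 0.982, and arrays of different stages at 0.857 to 0.877. The Gapdh control probe sets, which compare the 3′ with the 5′ end of one transcript, also split by stage. Their log2 difference of 3′ minus 5′ averaged 1.37 ± 0.31 in knockouts and 1.75 ± 0.07 in controls at E16.5 (SD, n = 4 each), and -0.33 ± 0.04 in knockouts and -0.29 ± 0.20 in controls at E14.5 (SD, n = 3 each). At E16.5, knockout replicates 1 and 4 had the lowest Gapdh differences (0.94 and 1.32) and the highest signals of the bioB spike-in (10840 and 18370, against 4555 to 6397 on the other 6 arrays). At E14.5, control replicate 1 stood apart from the other controls in several genes of this report. It was singled out by these values, so fits without it are not independent support for the Nr2f2 changes. The interstitial marker Pdgfra read 2060 on it, against 4300 and 4400 in the other controls, and 2670 to 2860 in the knockouts. The Nr2f2 changes at each stage and the genes called at E16.5 are given with and without these arrays of their stage.

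Nr2f2 signal was lower in the E16.5 knockout ovaries on 5 of its 6 probe sets, with no overlap between knockout and control arrays, and 3 of the 6 were called. Across all probe sets, 0.18% were called lower at E16.5, and 3.84% had all knockout arrays below all controls. The changes of the 3 called probe sets were -2.57, -1.79 and -1.60 on the log2 scale. The remaining signal differed widely between probe sets, from 16.3% to 58.5% of the control mean among those 5.

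The strongest loss of Nr2f2 signal was on 1416159_at. Its signals in the E16.5 knockouts were 302, 270.0, 409 and 303, against 1984, 1886, 1797 and 2227 in the controls. Every knockout array lay far below every control, and the knockout mean was 16.3% of the control mean. The log2 change was -2.57 ± 0.45 (SE, adjusted p = 0.0135). This call was lost without control replicate 1 (adjusted p = 0.0509), without control replicate 4 (0.0508) or without knockout replicate 1 (0.0584), while the change itself stayed between -2.69 and -2.50 in all 8 fits that left out 1 E16.5 array.

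On 1416160_at the E16.5 knockouts read 226, 334, 523 and 232, against 1064, 896, 941 and 994 in the controls. The groups did not overlap, and the highest knockout array was replicate 3. The mean of the knockouts was 33.8% of the control mean, with a log2 change of -1.60 ± 0.21 (adjusted p = 0.00295). It was the only Nr2f2 probe set called in all 8 of those fits (adjusted p of 0.000293 to 0.019).

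The dim probe set 1444229_at read 23.9, 6.19, 15.5 and 18.4 in the E16.5 knockouts, against 95.2, 84.6, 110.4 and 79.9 in the controls. Its knockout mean was 17.3% of the control mean, and the log2 change was -1.79 ± 0.39 (adjusted p = 0.0448). The groups were far apart, but the call was lost on leaving out any 1 of the 8 E16.5 arrays (adjusted p of 0.0657 to 0.152).

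The 3 calls of Nr2f2 probe sets at E16.5 did not hold without knockout replicates 1 and 4, the arrays with high spike-in signal. With the other 2 knockouts the changes were -2.51 for 1416159_at (adjusted p = 0.231), -1.19 for 1416160_at (0.062) and -2.03 for 1444229_at (0.241), all still negative, in a test with fewer arrays. In a fit chosen after the data were seen, which took the Gapdh log2 ratio of each array as a covariate, the changes were -3.18 (adjusted p = 0.0647), -1.27 (0.114) and -2.54 (0.0647).

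Among the 5 lowered Nr2f2 probe sets, the brightest, 1416158_at, kept the most signal. It read 2462, 2261, 3359 and 2053 in the E16.5 knockouts, against 3819, 4950.3, 4309 and 4250.4 in the controls. The knockout arrays again lay below all controls, though the knockout mean was still 58.5% of the control mean and the log2 change of -0.79 ± 0.21 did not pass the test (adjusted p = 0.116). The values of 1436475_at were 94.4, 117, 169 and 85.8 in the knockouts, against 233, 290, 221 and 201 in the controls, a log2 change of -0.96 ± 0.23 (adjusted p = 0.0740). It passed without knockout replicate 3, the knockout with the most signal on both of these probe sets (adjusted p = 0.0349). Without knockout replicates 1 and 4 the changes were -0.64 for 1416158_at and -0.68 for 1436475_at.

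The sixth probe set, 1431237_at, gave no such difference. It read 96.7, 101, 128 and 125 in the E16.5 knockouts, against 89.6, 84.9, 78.8 and 112 in the controls, with a log2 change of 0.26 ± 0.39 (adjusted p = 0.856), or 0.28 without knockout replicates 1 and 4. The groups overlapped, and its mean over the 14 arrays was below the 40th percentile of all probe sets. Of the 9 members, 7 lay above that percentile (a mean signal of 70.59), and 1444229_at was the other one below it.

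**Figure D1:**
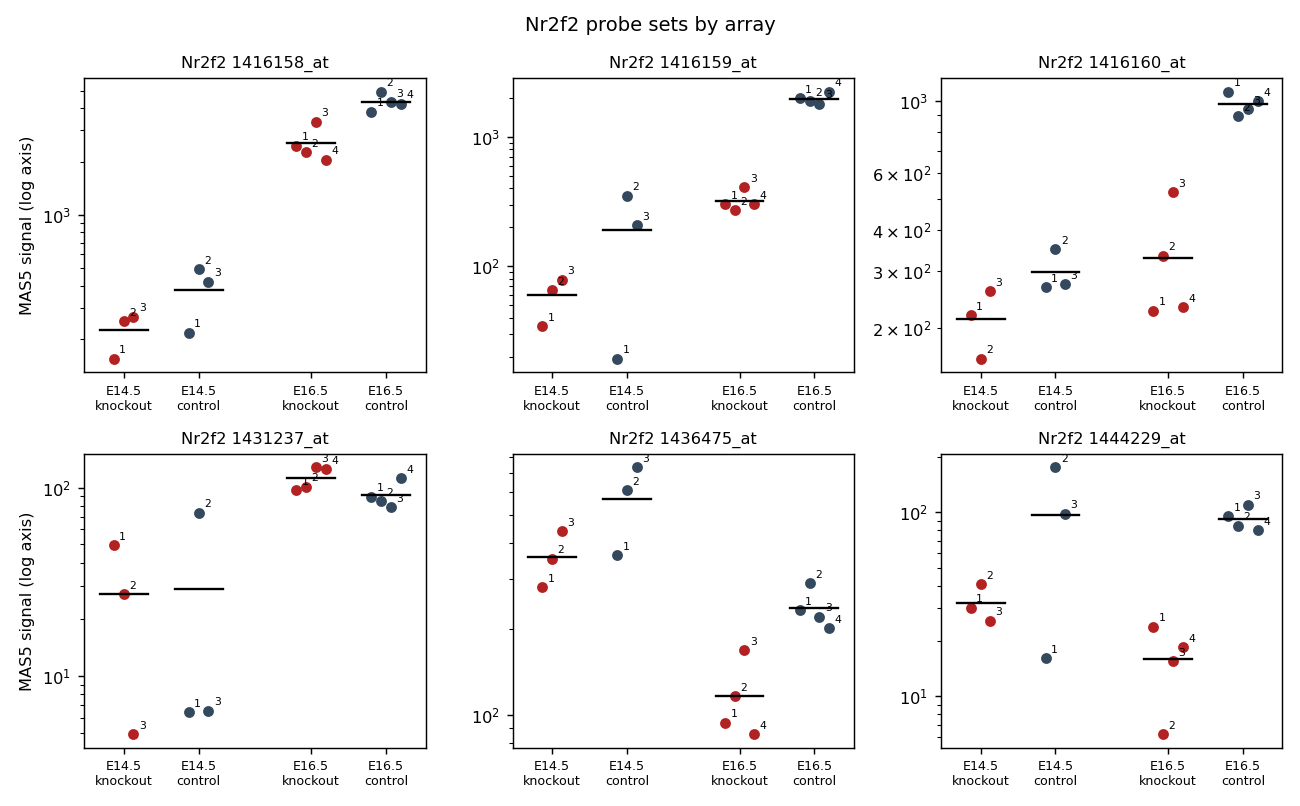
Signal of the 6 Nr2f2 probe sets on each array (log axis), one panel per probe set, with knockout left of control at each stage. Points are arrays, numbered by replicate, and bars are group means. At E16.5 the 4 knockout arrays lie below all 4 controls on every probe set but 1431237_at, and at E14.5 control replicate 1 is the lowest control on all 6.

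At E14.5, 2 days after the last tamoxifen dose, 5 of the 6 Nr2f2 probe sets had negative changes and none was called. Over all probe sets 0.0333% were called at E14.5, and 3701 had an unadjusted p under 0.05. Only 1416160_at had all knockout arrays below all controls, which was so for 4.5% of all probe sets. It read 219, 161 and 259 in knockouts, against 268, 349.8 and 273 in controls, a log2 change of -0.46 ± 0.25 (adjusted p = 0.662), or -0.53 without control replicate 1. On 1416158_at the knockouts read 155, 252 and 267, against 217, 493 and 422 in the controls (log2 change -0.67 ± 0.25, adjusted p = 0.463). The knockout mean was 59.6% of the control mean there. Without control replicate 1, the lowest of the controls, the change was -1.01 (adjusted p = 0.107).

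The E14.5 result for 1416159_at depended on single arrays. The knockouts read 34.6, 65.6 and 79.1, and the controls 19.3, 349.7 and 207, so that control replicate 1 lay below all 3 knockouts. The log2 change was -0.96 ± 0.52 with all arrays (adjusted p = 0.671) and -1.97 ± 0.26 without that control (adjusted p = 0.00506). This was the only call of an Nr2f2 probe set at E14.5 in the 6 fits that left out 1 array. Over those 6 fits the change of 1416159_at ranged from -1.97 to -0.28, with adjusted p up to 0.941. For 1444229_at, with 30.3, 40.7 and 25.7 in knockouts against 16.1, 176 and 98.3 in controls, the change was -0.90 ± 0.44 with all arrays (adjusted p = 0.630). Without control replicate 1 it was -1.63 (adjusted p = 0.0712). Signals of 1436475_at were 280.0, 352 and 438 in knockouts, against 362, 609 and 733 in controls, a log2 change of -0.61 ± 0.26 (adjusted p = 0.547), which was -0.90 without control replicate 1 (adjusted p = 0.286). The dim 1431237_at read 49.6, 27.2 and 4.91 in knockouts, against 6.45, 73.5 and 6.55 in controls, with no order between the groups and a change of 0.13 that was -0.20 without control replicate 1. Other left-out arrays weakened the E14.5 changes. Over the 6 fits they ranged from -1.01 to -0.44 for 1416158_at and from -0.61 to -0.29 for 1416160_at. The ranges were -0.90 to -0.40 for 1436475_at and -1.63 to -0.34 for 1444229_at.

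The same control was low in some other genes of gonadal somatic cells, but not in all. Its Wt1 signal was 3770, against 5310 and 5620 in the other E14.5 controls and 3310 to 4790 in the knockouts. Its summed signal over 10 measured interstitial markers was 17510, against 22350 and 22590 in the other controls and 20600 to 27920 in the knockouts. Wnt5a, an interstitial ligand gene, read 1060 on it and 1740 and 1570 in the other controls. The interstitial marker Gli2 read 526 on it, between the other controls (583 and 521). So did the endothelial marker Tek, at 322 on it against 303 and 364. The part of these differences in the Nr2f2 values was not tested.

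Averaged over both stages, 1416159_at (adjusted p = 0.0274) and 1416160_at (adjusted p = 0.00755) were called lower, against 0.0977% of all probe sets. Their log2 changes were -1.77 and -1.03. The call of 1416160_at held in all 14 fits that left out 1 array, and that of 1416159_at in 5 of the 14. For 1416158_at (adjusted p = 0.0573), 1436475_at (0.0521) and 1444229_at (0.0510) the mean change fell just short of the threshold with all arrays. Without E14.5 control replicate 1 all 3 passed (adjusted p = 0.00368 for 1416158_at, 0.0108 for 1436475_at and 0.000429 for 1444229_at). That array was the lowest control on all 6 Nr2f2 probe sets, so leaving it out must make their changes more negative. These passes are therefore not independent support. Of the 14 fits that left out 1 array, 1416158_at was called in 3, 1436475_at in 3 and 1444229_at in 1. Without E16.5 knockout replicates 1 and 4, 1416160_at was still called (adjusted p = 0.0316) and 1416159_at was not (0.125). The knockout effect was not shown to differ between stages for any member. The largest difference relative to its error was that of 1416160_at, whose effect at E16.5 minus that at E14.5 was -1.14 ± 0.33 (unadjusted p = 0.00252, adjusted p = 0.520). With limma, 0% of all probe sets were called in that comparison, while 3463 had an unadjusted p under 0.05.

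**Figure D2:**
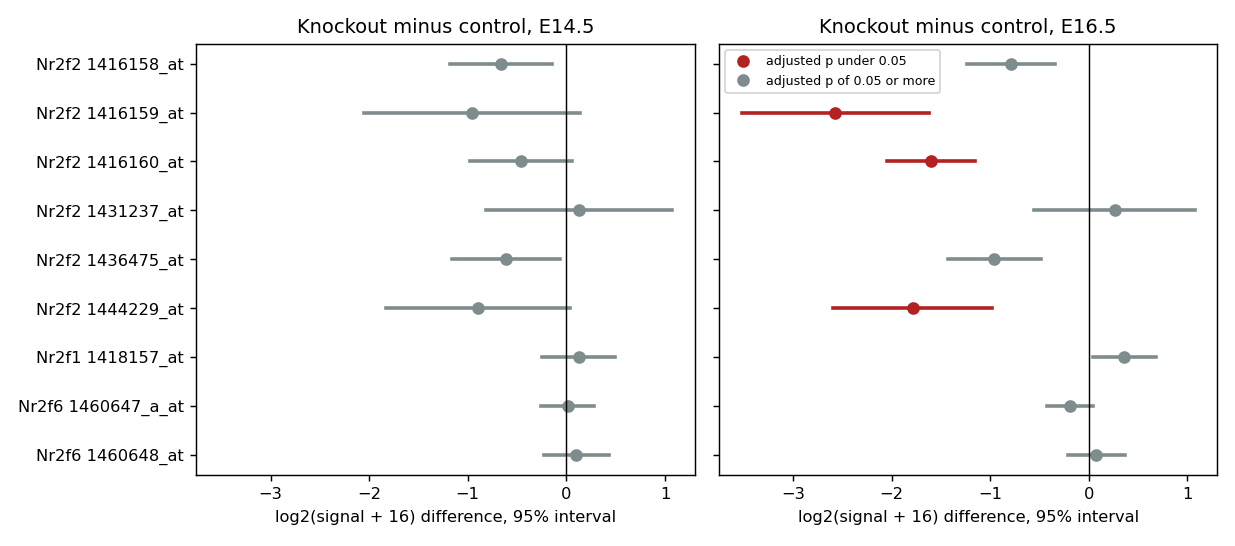
Fitted log2 change, knockout minus control, of the 9 member probe sets at each stage, with 95% intervals from limma in red where the adjusted p was under 0.05 and in grey otherwise. The 3 red Nr2f2 points at E16.5 lie at -2.57, -1.79 and -1.60, and the intervals of Nr2f1 and Nr2f6 include 0 except that of Nr2f1 at E16.5 (0.04 to 0.68).

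The disagreement between Nr2f2 probe sets at E16.5 was larger than the spread between arrays. Within each array, 1416159_at minus 1416158_at averaged -2.91 ± 0.14 in knockouts and -1.13 ± 0.23 in controls on the log2 scale (SD, n = 4 each), and the groups did not overlap. The knockout-minus-control difference of this within-array value was -1.78 for 1416159_at, -0.997 for 1444229_at, -0.81 for 1416160_at and 1.05 for 1431237_at. In all 4 cases the arrays of the groups were fully separated, for which the two-sided exact permutation p is 0.0286, the smallest that 4 against 4 arrays allow, before any correction for the 6 pairs of probe sets compared. Only 1436475_at kept pace with 1416158_at (-0.17, exact p = 0.2). At E14.5 none of these pairs was separated, and 3 against 3 arrays cannot give an exact p under 0.1. These pairs were chosen after the values had been seen. No source used here says which probe sets lie in the deleted exons, so signal from a transcript that lacks them and signal from cells that kept the gene cannot be told apart.

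These are whole ovaries, so fewer cells of a type and less RNA per cell cannot be told apart. Wt1, which drives the Cre, read 3268 ± 143 in knockouts and 4220 ± 200 in controls at E16.5 (SD, n = 4 each), a log2 change of -0.37 ± 0.13 (adjusted p = 0.233). At E14.5 its change was -0.23 ± 0.15 (adjusted p = 0.729). Of 10 measured interstitial markers, 3 were called lower at E16.5, with 0.214% of all genes called lower when each gene is taken by its brightest probe set. Pdgfra, a receptor of mesenchymal cells, changed by -1.25 ± 0.19 (adjusted p = 0.00518), Wnt5a by -1.34 ± 0.20 (0.00486) and the hedgehog effector Gli2 by -0.85 ± 0.18 (0.0362). Pdgfra and Wnt5a were called in all 8 fits without 1 E16.5 array, and Gli2 in 2 of the 8. Without knockout replicates 1 and 4 together, Pdgfra changed by -1.11 (adjusted p = 0.14), Wnt5a by -1.39 (0.062) and Gli2 by -0.44 (0.46), and none was called. Across the list, 3 of the 10 markers had positive changes, among them the matrix gene Dcn (5382 ± 1616 in knockouts, 3970 ± 597 in controls, log2 change 0.39, adjusted p = 0.411). The summed signal of the list ranged from 23940 to 31610 in knockouts and from 28140 to 30250 in controls. Its part in the Nr2f2 result was not tested.

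Nr2f1, the closest paralog, was not called higher at either stage. In simulated data, 10.4% of 1.5-fold changes were recovered at E14.5 and 26.8% at E16.5. The missing calls therefore do not show an unchanged Nr2f1. At E14.5 its probe set 1418157_at read 515, 603 and 667 in knockouts, against 440.3, 509.7 and 708 in controls. The groups overlapped fully. The log2 change was 0.12 ± 0.17, with a 95% interval of -0.24 to 0.49, and an adjusted p of 0.919. It was -0.022 without control replicate 1, the array with the least Nr2f1 signal.

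At E16.5 Nr2f1 read 945, 993, 1088 and 777 in knockouts, against 661, 843, 743 and 696 in controls. Knockout replicates 1, 2 and 3 were above every control, and replicate 4 lay within the control range. The mean of the knockouts was 129% of the control mean, and the log2 change of 0.36 ± 0.15 had a 95% interval of 0.04 to 0.68. It did not pass the test across all probe sets (unadjusted p = 0.0287, adjusted p = 0.338), and the two-sided exact permutation test over the 8 arrays gave p = 0.0571. Leaving out 1 array at a time moved the change between 0.29 and 0.45 with no call, and without knockout replicates 1 and 4 together it was 0.50 (adjusted p = 0.575).

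Averaged over both stages, the Nr2f1 change was 0.24, with a 95% interval of -0.0012 to 0.48 (adjusted p = 0.422) and an exact permutation p of 0.08. On a linear scale this interval runs from 0.999 to 1.40 times the control. It includes no change in Nr2f1 in the whole ovary. The effect at E16.5 minus that at E14.5 was 0.24 ± 0.23 (adjusted p = 0.845), so a difference between stages was not shown.

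Nr2f6 is represented by 2 probe sets, and neither was called. The brighter one, 1460647_a_at, at E14.5 read 412, 434.5 and 383 in knockouts, against 392.2, 408 and 417 in controls. Its log2 change there was 0.012 ± 0.13, with a 95% interval of -0.26 to 0.28, and it was -0.030 after quantile normalization, -0.038 after median centring of the arrays and -0.011 without control replicate 1. At E16.5 the same probe set read 2021, 2661, 2731 and 2213 in knockouts, against 2708, 2575, 2750.3 and 2876 in controls. Replicates 1 and 4, the knockout arrays with the high spike-in signals, were the lowest of all 8. The log2 change was -0.19 ± 0.11, with an interval of -0.42 to 0.04 (adjusted p = 0.531), and it was -0.016 without those arrays.

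The other Nr2f6 probe set, 1460648_at, read 497, 741 and 574 in E14.5 knockouts, against 551, 542 and 570.4 in controls. At E16.5 it read 432, 491, 427 and 561 in knockouts, against 466, 433, 459 and 439 in controls. The groups overlapped at both stages, with log2 changes of 0.10 ± 0.16 at E14.5 (interval -0.23 to 0.43) and 0.08 ± 0.14 at E16.5 (interval -0.21 to 0.36). Averaged over both stages, the Nr2f6 changes were -0.09 (interval -0.27 to 0.09) and 0.09 (interval -0.13 to 0.31). Among all probe sets, 0.293% were called higher at E16.5 and 0.0244% at E14.5, and none of the 3 paralog probe sets was among them under any setting tried.

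**Figure D3:**
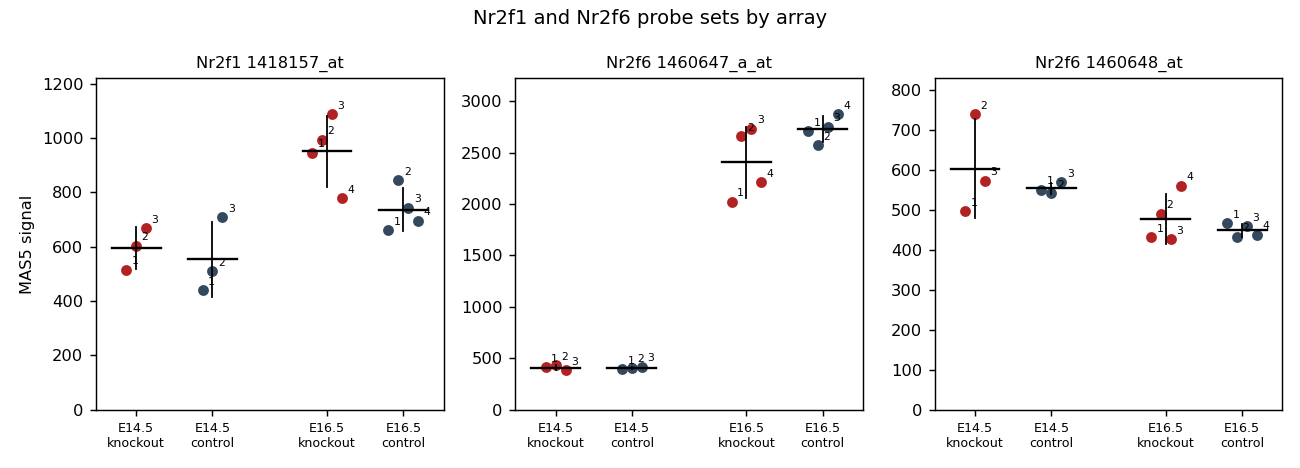
Signal of the Nr2f1 and Nr2f6 probe sets on each array, with knockout left of control at each stage; points are arrays, horizontal bars group means and vertical bars SD. At E16.5, 3 of the 4 Nr2f1 knockout arrays lie above all controls, while both Nr2f6 probe sets overlap between genotypes.

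Between stages, fitted changes of the members in controls ranged from -1.17 to 3.80 on the log2 scale, and called probe sets of Nr2f2 had opposite directions. Of the 9 members, 6 were called between E16.5 and E14.5 in knockouts (5 higher, 1 lower) and 7 in controls (6 higher, 1 lower). Over all probe sets, 51% were called in knockouts (27.6% higher, 23.4% lower) and 52.5% in controls (28.4% higher, 24.1% lower), so a stage call was common across the array. In controls 1416158_at averaged 4332 ± 467 at E16.5 (SD, n = 4) and 377 ± 143 at E14.5 (SD, n = 3), a log2 change of 3.54, whereas 1436475_at of the same gene averaged 236 ± 38.0 at E16.5 and 568 ± 189 at E14.5, a log2 change of -1.17. Log2 changes in controls were 3.80 for 1416159_at, 1.67 for 1416160_at, 1.58 for 1431237_at and 0.28 for 1444229_at, the last not called.

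The Nr2f6 probe sets also differed from each other. In controls 1460647_a_at averaged 2727 ± 124 at E16.5 and 406 ± 12.4 at E14.5, a log2 change of 2.70, while 1460648_at averaged 449 ± 16.1 at E16.5 and 555 ± 14.4 at E14.5, a log2 change of -0.29 (adjusted p = 0.102). Within arrays, 1460648_at minus 1460647_a_at was -2.56 ± 0.08 at E16.5 and 0.44 ± 0.04 at E14.5 in controls. Nr2f1, with 1 probe set, was modestly higher at E16.5, by 0.66 in knockouts (adjusted p = 0.00238) and 0.42 in controls (adjusted p = 0.0365). Median centring of the arrays, whose median signals were 118 to 136 at E16.5 and 90.01 to 102 at E14.5, left changes of 0.33 in knockouts and 0.08 in controls that were not called (adjusted p = 0.124 and 0.718). The control call was also lost without E14.5 control replicate 1 (adjusted p = 0.205) or 2 (0.111), or E16.5 control replicate 2 (0.102) or 3 (0.0665).

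The Gapdh 3′ over 5′ ratio differed between the stages in the same arrays, as given above. Actb did so the other way, with 3′ minus 5′ log2 differences of 0.15 ± 0.14 in knockouts and 0.24 ± 0.06 in controls at E16.5, and 0.87 ± 0.04 in knockouts and 0.86 ± 0.10 in controls at E14.5. Stage and array handling cannot be told apart here, and no rise or fall of Nr2f1, Nr2f2 or Nr2f6 with age is read from these values.

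**Figure D4:**
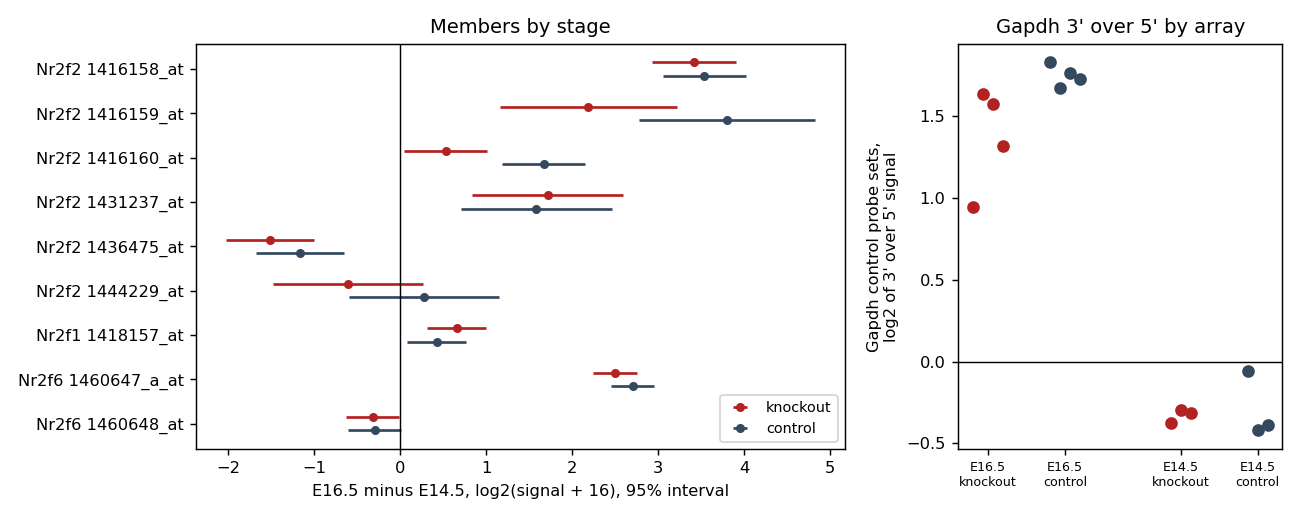
Left, log2 change of each member probe set, E16.5 minus E14.5, in knockouts and controls with 95% intervals; right, the log2 ratio of 3′ over 5′ Gapdh signal on each array, with E16.5 groups left of E14.5 groups. Probe sets of Nr2f2 lie on both sides of 0, and the E16.5 arrays sit between 0.94 and 1.83 on the Gapdh scale, all above the E14.5 arrays.

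Other nuclear receptors were examined for a change that might accompany the loss of Nr2f2, each by its brightest probe set. Of 46 listed receptors, 41 had a probe set and none was called at E14.5 or at E16.5, with 0.044% of all genes called at E14.5 and 0.693% at E16.5. At an unadjusted limma p under 0.05 there were 3701 of all 45037 probe sets at E14.5 and 5477 at E16.5. These counts take every probe set, so they are not a matched background for receptors taken by their brightest. The receptors under that p were Nr2e1 and Nr5a2 at E14.5. At E16.5 they were Nr0b2, Rarg, Vdr, Nr1i2, Rxrb, Pgr, Nr4a1, Nr5a1 and Nr5a2. At E16.5, 29 receptors had positive and 12 had negative changes, with a median log2 change of 0.19, beside a median of 0.058 and 59.17% positive changes over all 18193 genes. At E14.5 the split was 22 positive and 19 negative, with a median of 0.060 beside 0.037 over all genes.

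The largest receptor changes at E16.5 missed the threshold. Nr4a1, an immediate early orphan receptor, averaged 102 ± 30.6 in knockouts and 42.6 ± 4.94 in controls (SD, n = 4 each), a log2 change of 0.97 ± 0.23 (adjusted p = 0.0668). The xenobiotic receptor Nr1i2 was dim, at 30.7 ± 10.7 in knockouts and 10.3 ± 10.5 in controls (adjusted p = 0.178). Pgr, the progesterone receptor, averaged 179 ± 23.1 in knockouts and 326 ± 68.6 in controls, a log2 change of -0.79 ± 0.20 (adjusted p = 0.0828).

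Among the 8 measured receptors of the NR2 group and the RXR partners, none was called at either stage. The share called over all genes was 0.693% at E16.5 and 0.044% at E14.5. Rxrb, a retinoid X receptor, averaged 1039 ± 384 in E16.5 knockouts and 620 ± 140 in controls, a log2 change of 0.68 ± 0.25 (adjusted p = 0.262). Rxra averaged 462 ± 105 in knockouts and 430 ± 40.1 in controls at E16.5 (log2 change 0.08, adjusted p = 0.907), and Rxrg 44.5 ± 29.2 in knockouts and 31.5 ± 22.4 in controls (0.33, adjusted p = 0.834). The testicular receptors Nr2c1 and Nr2c2 had E16.5 changes of 0.03 and -0.04, with Nr2c2 at 2997 ± 333 in knockouts and 3066 ± 72.5 in controls. Hnf4a, Hnf4g and Nr2e1, like Rxrg, averaged under the 40th percentile, with E16.5 changes of 0.50, 0.19 and 0.35.

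**Figure D5:**
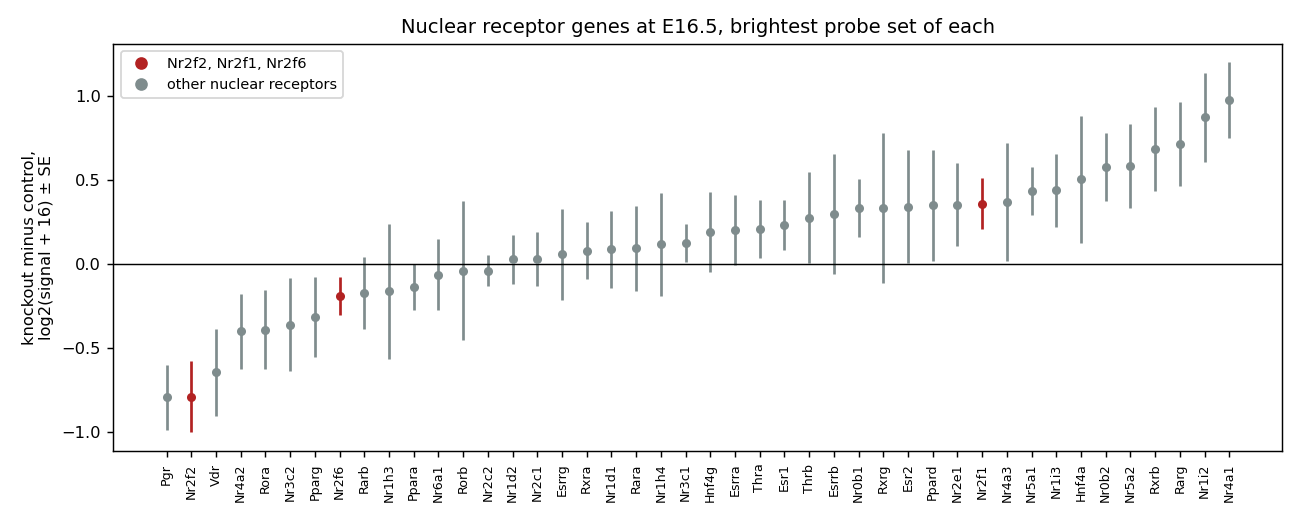
Fitted log2 change at E16.5, knockout minus control, of the 41 other nuclear receptors with a probe set and of the COUP-TF genes, each by its brightest probe set, with bars of 1 SE. Nr4a1 at 0.97 and Pgr at -0.79 mark the ends of the other receptors, and none of the 41 was called.

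COUP-TF cofactors had 6 of 8 listed genes measured, none called at either stage. Few calls were made over all genes, 0.693% at E16.5 and 0.044% at E14.5. Bcl11b (CTIP2), a zinc finger repressor first found as a COUP-TF-interacting protein, averaged 1093 ± 59.2 in E16.5 knockouts and 677 ± 130 in controls, a log2 change of 0.70 ± 0.18 (adjusted p = 0.106). Its relative Bcl11a (CTIP1) averaged 99.7 ± 28.0 in knockouts and 151 ± 29.8 in controls, a log2 change of -0.54 ± 0.20 (adjusted p = 0.275). Zfpm1 (FOG1), a zinc finger cofactor of GATA factors, averaged 402 ± 220.0 in knockouts and 224 ± 57.8 in controls, a log2 change of 0.68 ± 0.30 (adjusted p = 0.356).

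Of 8 genes reported as COUP-TFII targets or partners in other tissues, 1 was called at E16.5 and none at E14.5, with 0.693% of all genes called at E16.5 and 0.044% at E14.5. Angpt1, the angiopoietin ligand of the endothelial receptor Tek, read 70.7, 52.4, 103 and 55.0 in E16.5 knockouts, against 184, 207, 136 and 143 in controls. All knockouts were below all controls, with a log2 change of -1.11 ± 0.23 (adjusted p = 0.0383), but of the 8 fits that left out 1 E16.5 array the call held only in the one without knockout replicate 3 (adjusted p of 0.0232, and 0.0569 to 0.127 in the others). Its receptor Tek read 396, 360, 388 and 306 in knockouts, against 619, 540, 646 and 558 in controls, a change of -0.68 ± 0.15 (adjusted p = 0.0477) that was called in none of those 8 fits. Without knockout replicates 1 and 4 together, Angpt1 changed by -1.01 (adjusted p = 0.385) and Tek by -0.63 (0.362). The summed signal of 6 endothelial markers ranged from 3598 to 4760 in knockouts and from 3429 to 4320 in controls. Neuropilins, which COUP-TFII regulates in veins and lymphatics, were not called, with E16.5 changes of 0.31 for Nrp1 (adjusted p = 0.309) and 0.36 for Nrp2 (0.525).

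The genes next to the members on the chromosome gave no call. Of 18 neighbours, the nearest 3 named genes with a probe set on each side of each member, none passed the test at either stage. Clone and predicted-gene symbols were left out. Over all genes, 0.693% were called at E16.5 and 0.044% at E14.5, so the absence of a call among 18 says little about them. They are neighbours by gene order only, and some lie far from the member. Their E16.5 changes ran from -0.47 for Slf1 (adjusted p = 0.257) to 0.78 for Adgrv1 (adjusted p = 0.233), both beside Nr2f1, on the log2 scale. The largest beside Nr2f2 was 0.60 for Pgpep1l (adjusted p = 0.338), and beside Nr2f6 it was 0.55 for Ushbp1 (adjusted p = 0.719).

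Some markers listed for other tissues and cell types differed at E16.5, and which cells gave these signals was not tested. Of 4 adrenal cortex markers, 3 were called higher in knockouts, and 0.478% of all genes were called higher. They were the ACTH receptor Mc2r (1.46 ± 0.23, adjusted p = 0.00745), Hao2 (1.49 ± 0.26, 0.0145) and the steroid dehydrogenase Hsd3b1 (1.57 ± 0.30, 0.0209). The list's summed signal was 3758 to 6863 in knockouts and 1320 to 2516 in controls. At E14.5 all 4 markers had positive changes (0.67 to 1.03) and none was called, with 56.11% of all genes positive and 0.044% called. One of 5 smooth muscle markers, Des, was called higher (172 ± 21.6 in knockouts, 72.9 ± 36.7 in controls, adjusted p = 0.0461), with summed signals of 3876 to 6357 in knockouts and 3668 to 4186 in controls. One of 6 neural and glial markers, S100b, was called higher (148 ± 44.7 in knockouts, 61.8 ± 5.65 in controls, adjusted p = 0.0433), while that list summed to 348.5 to 525.1 in knockouts and 472.9 to 549.7 in controls. None of 9 pre-granulosa markers was called, although their sum was 19920 to 22270 in knockouts and 24070 to 25280 in controls. That sum weighs bright genes most, and the brightest, Amhr2, averaged 7639 ± 1380 in knockouts and 9751 ± 1055 in controls. The largest changes at E16.5 were those of Foxl2 (-0.83 ± 0.20, adjusted p = 0.0753), Wnt4 (-0.44 ± 0.19, 0.361) and Irx5 (0.39 ± 0.15, 0.302). Foxl2 averaged 1425 ± 199 in knockouts and 2524 ± 150 in controls. Across the 9, changes were positive for 4 and negative for 5, beside 59.17% positive over all genes. None was called among 7 germ cell, 5 macrophage and 5 mesonephric markers. At E16.5 changes were positive for 6 germ cell, all 5 macrophage and 3 mesonephric markers. The largest in each list were Pou5f1 (0.56, adjusted p = 0.683), C1qb (0.82, 0.0751) and Cdh16 (0.77, 0.412). Sums in knockouts were 10700 to 13630 (germ cell), 2369 to 5052 (macrophage) and 2741 to 3353 (mesonephric). In controls they were 9844 to 13790, 2162 to 2497 and 2899 to 4027. Of the 8 fits that left out 1 E16.5 array, Mc2r was called in all 8, Hao2 in 5, Hsd3b1 in 4, Des in 2 and S100b in 1. Without knockout replicates 1 and 4 the changes were 1.43 for Mc2r (adjusted p = 0.145), 1.55 for Hao2 (0.108), 1.49 for Hsd3b1 (0.24), 1.04 for Des (0.472) and 0.99 for S100b (0.381). The part of these differences in the values of Nr2f1 and Nr2f2 was not tested.

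The genes whose signal followed each member most closely were ranked by Pearson correlation over the 14 arrays, after subtracting each stage's mean, among 11853 genes above the 40th percentile. They are a description only, since the points share genotype groups and array scaling. For Nr2f2 (1416158_at) the highest were Wt1 (0.93), Wnt5a (0.91), Tmem130 (0.90) and Npnt (0.89), and the lowest were Pgbd5 (-0.92) and Htra1 (-0.91). For Nr2f1 they were Ints10 and Ttll3 (0.85 each), with Tent2 (-0.87) at the other end, and for Nr2f6 (1460647_a_at) Midn (0.95) and Srpk1 (0.92), with Rarg (-0.91) at the other end. The lists of the 3 members shared no gene, which is the likely outcome for lists this short from 11853 genes and says nothing about the members.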

How the data were processed

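For 14 arrays the authors deposited probe set intensity on a linear scale. The submitters' processing notes name MAS5 and Affymetrix Expression Console, without a version. RNA came from a PicoPure kit and was amplified with the 3' IVT Express kit, per the labels' protocols. Each array had a mean of 500 after trimming 2% from both ends, and this scaling removes global differences in RNA amount. The number of arrays limits the precision.

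Names of probe sets came from the platform annotation. Intensities were taken as log2(signal + 16), and all 14 arrays were fitted as 4 groups in limma 3.58.1, using lmFit and trended eBayes (R 4.3.3). Tests were two-sided and Benjamini-Hochberg adjusted over 45037 probe sets, leaving out 64 controls, with a threshold of 0.05 and 95% intervals. Exact permutation tests over arrays were run for single probe sets. The procedure was tested on simulated data with changes of known size. Of 1.5-fold changes, 10.4% were recovered at E14.5 and 26.8% at E16.5. Of 2-fold changes, 55.6% were recovered at E14.5 and 66.4% at E16.5. False calls were 5.92% at E14.5 and 3.91% at E16.5. Most changes of 1.5-fold would thus be missed, and an uncalled probe set is not shown to be unchanged. Figures used Python 3.11.15, matplotlib 3.10.9, pandas 2.3.3 and numpy 2.4.6.

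All member probe sets are named. From other lists, each gene taken by its brightest probe set, the genes past the threshold are named, or otherwise up to 3 by size of change; the NR2 and RXR group is named in full. Further genes (Dcn, Amhr2, Nrp1, Nrp2 and neighbours) were chosen after their values were seen. Members and lists were chosen with earlier results of these data known. Neighbouring genes come from RefSeq genes of GRCm38.p6, used only for their order. Alternatives covered pseudocount, scaling, filter, test settings, left-out arrays, a replicate block and, chosen after seeing the data, a Gapdh 3' minus 5' covariate within stage.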

Additional observations from a re-analysis of the deposited data

How the results depend on the processing

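The number of Nr2f2 calls depended on the settings. At E16.5, 3 Nr2f2 probe sets were called. The number was 1 with a pseudocount of 1, without the eBayes trend and at a threshold of 0.01. It was 0 without both E16.5 knockout replicates 1 and 4 and 0 with the Gapdh covariate. By the unadjusted exact permutation test it was 5, a count that only restates which probe sets had separated arrays. Each of those 5 had the smallest possible exact p, 0.0286, which was 0.0515 when adjusted over the 9 members. Leaving out 1 array gave 1 to 3. For the mean over both stages, 2 were called. The number was 1 with a pseudocount of 1, without the trend, without those 2 arrays, at a threshold of 0.01 and with the Gapdh covariate, 4 with a pseudocount of 64 and with median centring, and 5 by the exact test; leaving out 1 array gave 1 to 5. At E14.5 none was called with all arrays and 0 to 1 with 1 array left out. The cause was not tested. Nr2f1 and Nr2f6 had 0 calls between genotypes under every setting, as had the difference between stages. The labels do not say whether equal replicate numbers are pairs, and the main fit treated the arrays as unpaired. Deviations of same-numbered knockout and control arrays correlated at -0.016 to 0.195 at E16.5 and -0.013 to 0.028 at E14.5, which cannot decide it. The best-matching control had the same number for knockout replicates 1 and 4 at E16.5 and replicate 1 at E14.5. With the replicate block, 5 Nr2f2 probe sets were called at E16.5 and 5 for the mean effect. The stage comparison had 6 to 8 member calls in knockouts and 6 to 7 in controls with 1 array left out.

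Signs turned for the values given next, none of them called with all arrays. For Nr2f6 1460647_a_at the E14.5 change was -0.030 with quantile normalization and -0.038 with median centring, and its mean change was 0.0065 with the Gapdh covariate. The Nr2f2 probe set 1444229_at, E16.5 minus E14.5 in controls, was -0.030 with quantile normalization and -0.063 with median centring. The knockout effect at E16.5 minus that at E14.5 was -0.036 with a pseudocount of 1 and -0.075 with the Gapdh covariate for Nr2f2 1431237_at, 0.023 without both E16.5 knockout arrays for Nr2f2 1416158_at and 0.024 with the Gapdh covariate for Nr2f6 1460648_at. With 1 array left out, E14.5 changes spanned -0.25 to 0.79 for 1431237_at, -0.022 to 0.31 for Nr2f1, -0.030 to 0.059 for Nr2f6 1460647_a_at and -0.053 to 0.23 for 1460648_at, the stage change of 1444229_at in controls spanned -0.46 to 0.83, and differences between stages spanned -0.35 to 0.22 for 1416158_at, -0.53 to 0.51 for 1431237_at and -0.15 to 0.13 for 1460648_at.

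Depth has no direct measure on these arrays. Probe sets 1431237_at and 1444229_at lie near the low end of the signal range, where the change is most understated.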
